A study of Homo sapiens with 208 samples.

Results

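The levels of 10 genes of epithelial tight junctions, cell adhesion and desmosomes were followed over 24 h in gefitinib-sensitive PC9 cells and in a gefitinib-resistant line derived from them. The genes were CLDN1, CLDN3, CLDN4, CLDN7, OCLN, TJP1, EPCAM, F11R, DSP and JUP, and their probes were found by the RefSeq accession that the array gives for each probe. All 10 had a probe, 15 probes in all, among 16961 genes with a probe matched in this way. All 15 probes lay well above background on all arrays, and all 10 genes were among the 13276 genes tested.

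PC9 is a line of human lung adenocarcinoma (non-small cell lung cancer) that carries an activating deletion in EGFR, the receptor of epidermal growth factor (EGF), and gefitinib is an inhibitor of the kinase of that receptor. The resistant line, PC9GRM2 in the labels and PC9M2 in the study, was obtained by long culture of PC9 in low concentrations of gefitinib and selection of surviving clones, so it stands for 1 selected line. Both lines were starved for 48 h and then received no treatment, 0.5 µM gefitinib, 100 ng/ml EGF, or EGF and gefitinib together. By the study's sampling scheme gefitinib was added before 0 h and EGF at 0 h, so the arrays of 0 h with gefitinib already held treated cells. RNA was taken at 0 h, 0.5 h, 1 h and then every hour to 24 h, which gave 8 courses of 26 time points with 1 one-colour array each. The 26 time points of a course stand in for replicates here, and no source says that they came from separate cultures, so the p-values measure the spread between time points of 1 course and not between repeat cultures.

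Tight junctions seal the space between neighbouring epithelial cells. Their strands are built by claudins and occludin (OCLN), which hold to the actin cytoskeleton through scaffold proteins such as ZO-1 (TJP1), and the junctional adhesion molecule JAM-A (F11R) sits beside them. Desmosomes, which tie the intermediate filaments of neighbouring cells together, contain desmoplakin (DSP) and plakoglobin (JUP), and plakoglobin is also found in adherens junctions as a close relative of β-catenin. EPCAM is a membrane glycoprotein of epithelial cells and of many carcinomas that binds claudin-7. The loss of these proteins is a known feature of the epithelial to mesenchymal transition.

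The 4 treatments of a line at a time point were hybridised on 1 slide, so that differences between treatments were taken within slides, whereas the lines shared 0 slides and 0 scan days. Line and scan period therefore cannot be told apart. Spots of CLDN7, EPCAM, DSP or JUP were saturated on some PC9 arrays, at 10 time points in all, and on none of PC9M2. The untreated PC9M2 array of 11 h stood apart, with a median correlation of 0.922 with its course against a course median of 0.969. The PC9M2 arrays of 0.5 h with EGF and with both agents also ran against the gefitinib differences of their course (r = -0.39 across genes, the next lowest of the 26 time points being 0.24). Whether the labels of this pair were exchanged was not tested. Calls that changed without the 11 h or the 0.5 h time point are given below. All 8 epithelial cell markers examined were well above background on all arrays, and of 17 mesenchymal markers 6 were so on all arrays (VIM, S100A4, SNAI1, SNAI2, TAGLN and THY1), whereas CDH2, PDGFRB and ZEB2 were on at most 2. The summed level of the epithelial markers had course medians of 17.23 to 17.38 in PC9 and of 18.26 to 18.41 in PC9M2, and that of 11 mesenchymal markers of 14.21 to 14.77 over both lines. Such a sum follows its brightest genes, such as KRT19 (medians of 15.66 in untreated PC9 and 17.32 in untreated PC9M2). Taken singly, 3 of the 8 epithelial markers were higher and 4 lower in untreated PC9M2 (median difference -0.11). Among all genes 31.1% were higher and 37.0% lower. In cultures of this kind fewer cells of a type and less RNA per cell cannot be told apart.

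The promoters of the 5 genes that were higher with gefitinib in both lines (below) are shown because these genes moved in the same direction. They are the 250 bases before the start of the first RefSeq entry of each gene (build GRCh38.p14), printed 5′ to 3′ on the strand of the gene. Capitals mark CACCTG on either strand, the E-box bound by SNAI and ZEB repressors. They lie at chr3:190322447-190322696 (CLDN1, minus strand), chr7:73770271-73770520 (CLDN3, minus strand), chr5:69492297-69492546 (OCLN, plus strand), chr6:7541421-7541670 (DSP, plus strand) and chr17:41786712-41786961 (JUP, minus strand).
CLDN1: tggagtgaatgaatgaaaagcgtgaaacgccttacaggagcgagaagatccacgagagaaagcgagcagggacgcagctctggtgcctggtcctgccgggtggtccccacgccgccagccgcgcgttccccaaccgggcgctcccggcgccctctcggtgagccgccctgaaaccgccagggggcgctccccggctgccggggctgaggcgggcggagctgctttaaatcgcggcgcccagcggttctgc
CLDN3: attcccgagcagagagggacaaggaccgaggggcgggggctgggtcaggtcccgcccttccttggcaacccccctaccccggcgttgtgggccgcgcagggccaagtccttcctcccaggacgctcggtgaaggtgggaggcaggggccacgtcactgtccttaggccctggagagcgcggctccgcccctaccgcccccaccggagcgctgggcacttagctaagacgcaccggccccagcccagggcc
OCLN: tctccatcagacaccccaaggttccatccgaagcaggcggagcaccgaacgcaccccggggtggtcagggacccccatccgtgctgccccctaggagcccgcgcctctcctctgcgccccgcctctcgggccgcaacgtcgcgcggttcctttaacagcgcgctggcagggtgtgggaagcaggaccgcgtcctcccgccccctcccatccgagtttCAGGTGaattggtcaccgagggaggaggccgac
DSP: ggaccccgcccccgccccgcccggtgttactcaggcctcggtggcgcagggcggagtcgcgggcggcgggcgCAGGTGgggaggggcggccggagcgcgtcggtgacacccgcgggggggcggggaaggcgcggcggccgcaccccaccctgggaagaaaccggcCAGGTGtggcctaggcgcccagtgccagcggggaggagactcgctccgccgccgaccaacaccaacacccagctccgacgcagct
JUP: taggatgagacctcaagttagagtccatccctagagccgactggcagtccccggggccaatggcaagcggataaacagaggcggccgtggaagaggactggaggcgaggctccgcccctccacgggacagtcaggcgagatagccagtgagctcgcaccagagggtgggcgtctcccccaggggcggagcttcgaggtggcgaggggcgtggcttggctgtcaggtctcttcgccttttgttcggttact

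CACCTG was present once in the OCLN entry, 2 times in the DSP entry and in none of those of CLDN1, CLDN3 and JUP. A second JUP entry, at chr17:41785977-41786226 on the minus strand, held 2 copies. Over all 14 entries of the 8 genes with an entry, 6 entries of 5 genes held it, and 17.5% of 35116 promoter entries of the same length did. TGANTCA, the site of AP-1 factors, lay 2 times in the entry of CLDN4 and in no other of the 14 against 6.57% of all entries, and AACNNGTT, the site of GRHL factors, lay in none of the 14 against 3% of all entries. No match of one motif overlapped another. EPCAM and F11R had no entry.

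With gefitinib, CLDN1, CLDN3, OCLN, DSP and JUP were higher than in untreated cells of the same line in both lines. DSP and CLDN3 showed the largest differences among the 10 genes in PC9 and CLDN1 the largest in PC9M2. In PC9, 6 of the 10 genes were higher, 3 lower and 1 did not pass the test, and among all 13276 genes tested 35.1% were higher and 37.2% lower. In PC9M2, 5 were higher, none was lower and 5 did not pass, and among all genes 32.6% were higher and 34.1% lower. On the log2 scale their median difference was 0.35 for PC9 and 0.29 for PC9M2, and over all genes it was -0.02 and -0.01. With array scaling to the 75th percentile in place of quantile normalization the split in PC9M2 was 6 higher and 1 lower.

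**Figure D1:**
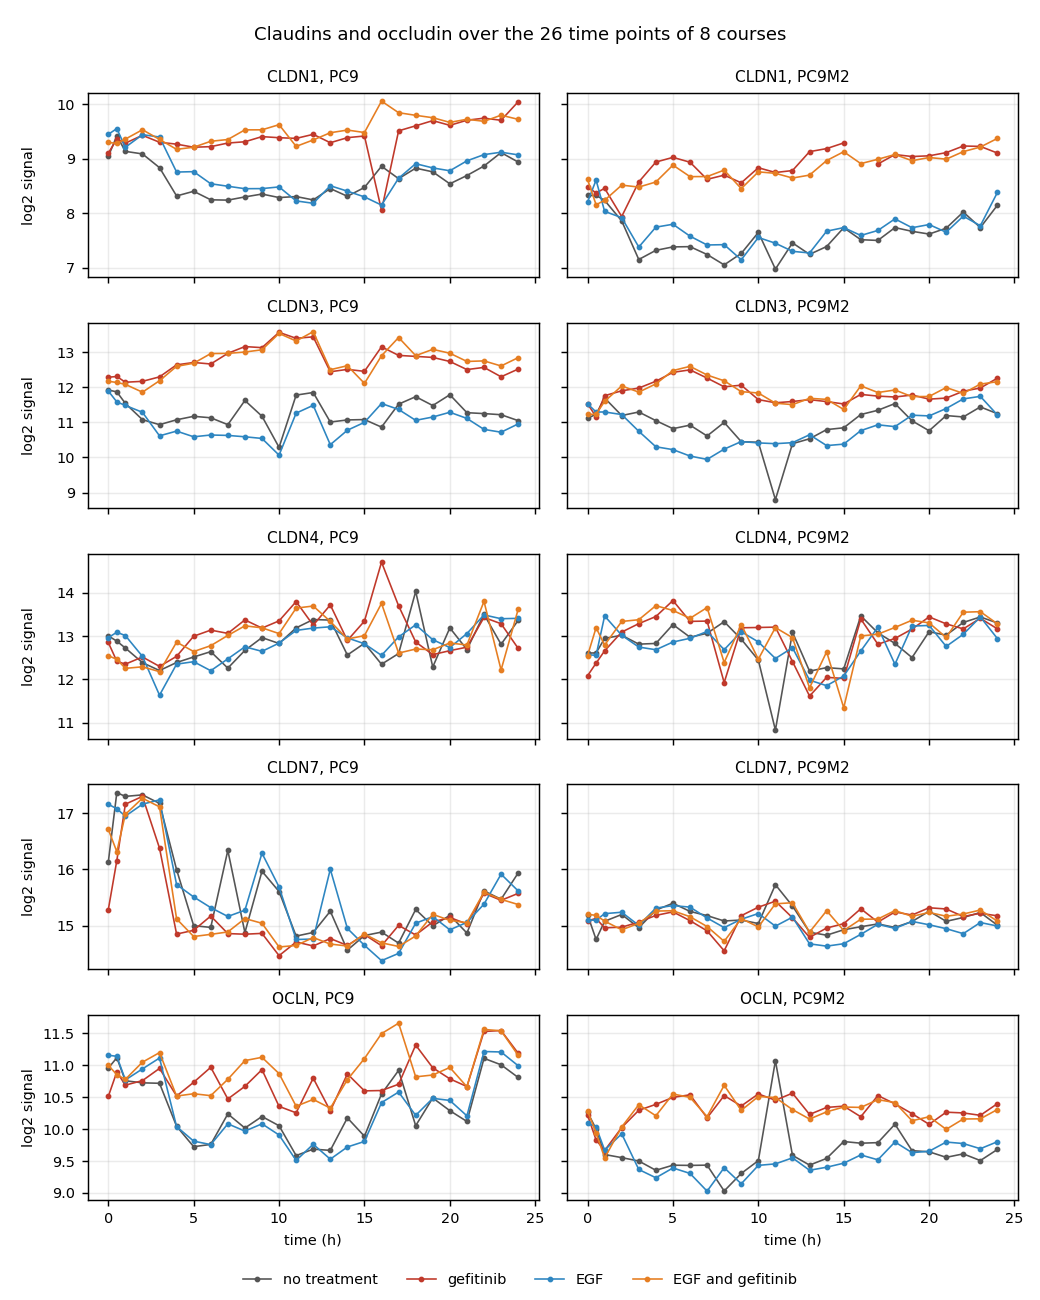
Log2 signal of CLDN1, CLDN3, CLDN4, CLDN7 and OCLN against time in hours, with PC9 on the left, PC9M2 on the right and 1 line for each treatment; each point is 1 array, and a gap is a spot left out as an outlier. The gefitinib courses of CLDN1, CLDN3 and OCLN run above the courses without gefitinib at most time points in both lines, those of CLDN3 in PC9 between 12.14 and 13.57 against 10.29 to 11.92 untreated, and CLDN7 starts high in PC9 but not in PC9M2.

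DSP, which links the desmosome to keratin filaments, ranged from 13.15 to 16.18 in untreated PC9 with a median of 14.02 (log2 signal, as all levels below) and from 14.51 to 16.50 with gefitinib, with a median of 15.50. The courses overlapped through a single untreated array, that of 3 h, which held the highest untreated value. The mean paired difference was 1.56 ± 0.17 (SE), or 2.95-fold, with 24 of 25 time points higher (adjusted p = 5.73e-09, limma). In PC9M2 it ranged from 13.60 to 14.69 untreated (median 14.18) and from 14.26 to 15.55 with gefitinib (median 15.21). These courses overlapped at their edges. The difference was 0.91 ± 0.09, or 1.88-fold, with 24 of 26 time points higher (adjusted p = 6.55e-10).

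JUP, encoding plakoglobin, ranged from 12.94 to 15.38 in untreated PC9 (median 13.67) and from 13.76 to 15.05 with gefitinib (median 14.62). The ranges overlapped, and the untreated course was highest at its first time points. The difference was 0.63 ± 0.14, with 22 of 26 time points higher (adjusted p = 0.000168). In PC9M2 the levels were 11.91 to 13.99 untreated (median 13.47) and 13.08 to 14.68 with gefitinib (median 13.79). These overlapped too, the lowest untreated value being that of the 11 h array. The difference was 0.47 ± 0.09, with 23 of 26 time points higher (adjusted p = 4.51e-05).

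CLDN3 was the one gene of the 10 whose untreated and gefitinib courses did not overlap, and this held in PC9 but not in PC9M2. How common such courses are among all genes was not tested. CLDN3 lay between 10.29 and 11.92 in untreated PC9 (median 11.20) and between 12.14 and 13.57 with gefitinib (median 12.65). All gefitinib arrays stood above all untreated arrays. The difference was 1.42 ± 0.11, or 2.68-fold, with 26 of 26 time points higher (adjusted p = 7.13e-12). In PC9M2 it lay between 8.80 and 11.69 untreated (median 11.05) and between 11.16 and 12.50 with gefitinib (median 11.77). The lowest untreated value was again that of 11 h, and the courses overlapped. The difference was 0.91 ± 0.11, with 25 of 26 time points higher (adjusted p = 5.64e-08).

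CLDN1, a claudin of the tight junction strand, had levels of 8.24 to 9.42 in untreated PC9 (median 8.59) and of 8.06 to 10.04 with gefitinib (median 9.38). The gefitinib course held both the lowest value, at 16 h, and the highest, so the ranges overlapped. The difference was 0.75 ± 0.09, with 24 of 26 time points higher (adjusted p = 3.7e-08). In PC9M2 the levels were 6.98 to 8.33 untreated (median 7.57) and 7.94 to 9.29 with gefitinib (median 8.93). The overlap was small, and no pair of arrays was lower with gefitinib. The difference was 1.24 ± 0.10, or 2.37-fold, with 25 of 25 time points higher (adjusted p = 5.9e-11).

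OCLN, which joins the claudins in the strand, lay between 9.59 and 11.12 in untreated PC9 (median 10.22) and between 10.26 and 11.55 with gefitinib (median 10.75). The courses overlapped over much of their range. The difference was 0.46 ± 0.09, with 22 of 26 time points higher (adjusted p = 3.02e-05). In PC9M2 it lay between 9.03 and 11.07 untreated (median 9.57) and between 9.66 and 10.56 with gefitinib (median 10.32). The highest untreated value was that of the 11 h array, and the courses overlapped. The difference was 0.63 ± 0.09, with 23 of 26 time points higher (adjusted p = 3.35e-07).

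EPCAM ran the other way in PC9. Its levels were 14.66 to 16.87 untreated (median 15.39) and 14.38 to 16.95 with gefitinib (median 14.99), and the ranges overlapped almost fully. The paired difference was -0.47 ± 0.09, with 4 of 26 time points higher (adjusted p = 7.43e-05). In PC9M2 its levels were 15.18 to 15.64 untreated (median 15.40) and 15.07 to 15.63 with gefitinib (median 15.39), a far narrower spread, with SDs of 0.11 and 0.15 against 0.58 and 0.59 in PC9. The difference of -0.06 ± 0.03 did not pass the test (adjusted p = 0.118).

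TJP1, the scaffold ZO-1, was also lower with gefitinib in PC9, by -0.22 ± 0.07 with 6 of 26 time points higher (adjusted p = 0.00794), from a median of 11.71 (11.10 to 12.43) to 11.51 (11.05 to 12.39). In PC9M2 the difference was -0.06 ± 0.07 (adjusted p = 0.417). A second TJP1 probe gave -0.03 in PC9 and 0.07 in PC9M2, and neither passed the test. CLDN7, the claudin that EPCAM binds, differed by -0.35 ± 0.10 in PC9 with 6 of 26 time points higher (adjusted p = 0.00251), but by 0.02 with a normexp background correction and by -0.16 with scaling to the 75th percentile, neither of which passed. In PC9M2 CLDN7 differed by 0.00 ± 0.05 (adjusted p = 0.993).

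CLDN4, a claudin of many simple epithelia, and F11R, encoding JAM-A, had small differences in both lines. CLDN4 had medians of 12.77 and 13.03 in PC9 and of 12.96 and 13.16 in PC9M2, and its differences of 0.24 ± 0.13 and 0.09 ± 0.13 did not pass the test (adjusted p = 0.0938 and 0.548). Without the time points with a saturated spot the PC9 difference was 0.30 and passed (adjusted p = 0.0249). F11R was higher by 0.18 ± 0.08 in PC9, with 17 of 26 time points higher (adjusted p = 0.041), a call that was lost in 8 of 16 alternative settings, the scan day as a random block among them (adjusted p = 0.170). In PC9M2 the F11R difference was 0.12 ± 0.06 (adjusted p = 0.113). In PC9 the calls of CLDN1, CLDN3, OCLN and DSP passed in all 16 alternative settings and those of the other 5 genes called did not, and in PC9M2 all 5 calls did, in each case apart from a setting that also required a difference of at least 1.

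**Figure D2:**
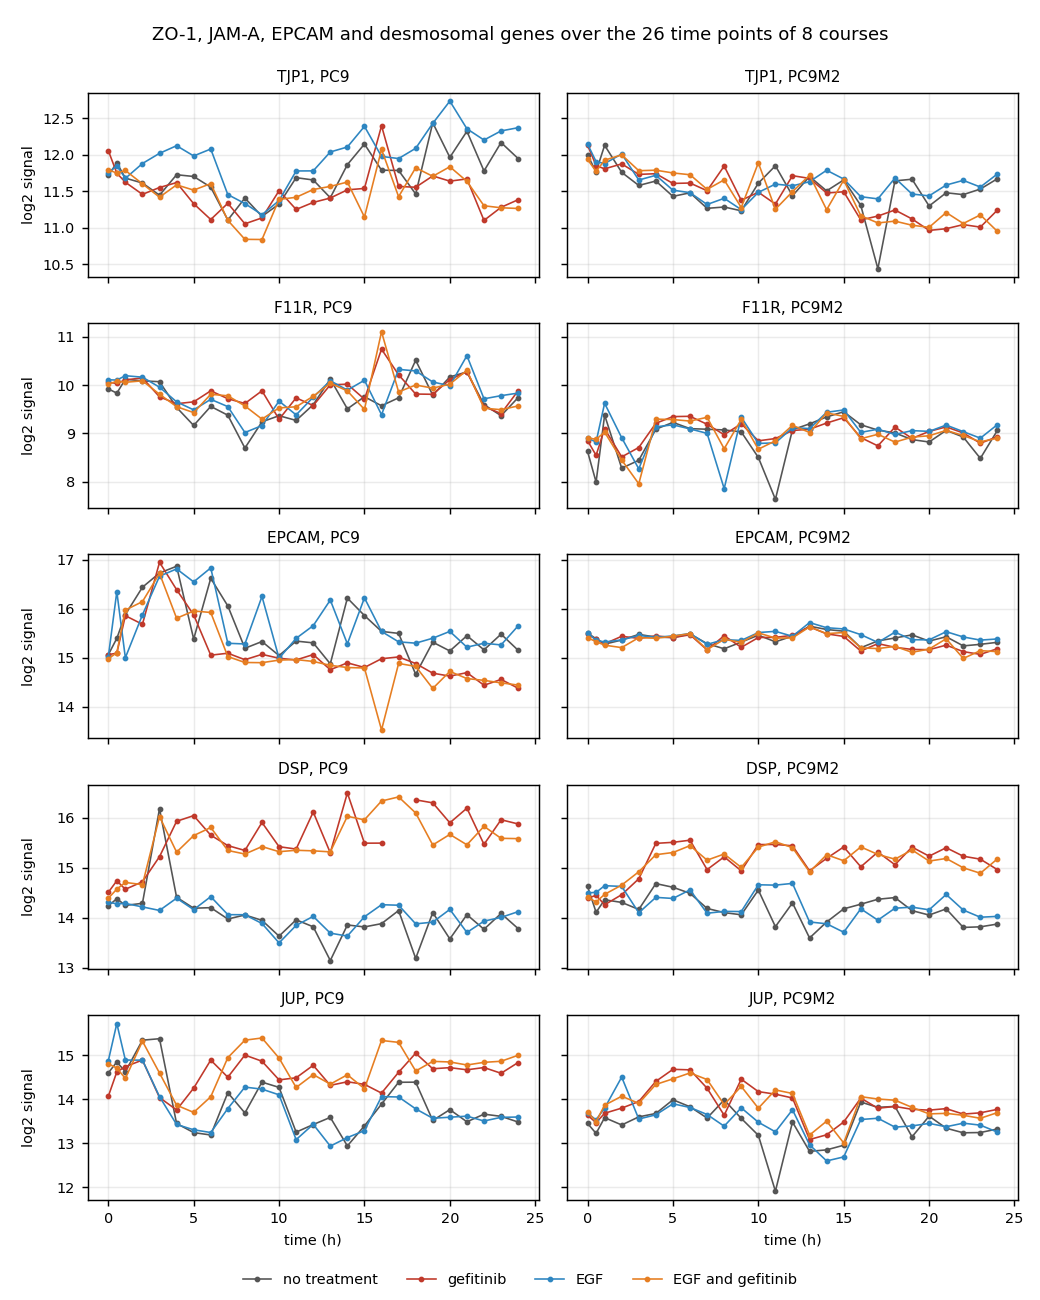
Log2 signal of TJP1, F11R, EPCAM, DSP and JUP against time in hours, with PC9 on the left, PC9M2 on the right and 1 line for each treatment; each point is 1 array, and a gap is a spot left out as an outlier. The DSP courses with gefitinib leave those without it over the first hours and stay apart in both lines, and EPCAM varies between 14.66 and 16.87 in untreated PC9 against 15.18 to 15.64 in untreated PC9M2.

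The same question was asked on other arrays by comparing cells with EGF and gefitinib to cells with EGF alone, a comparison that shares no array with the one above. It used the same slides, and so the same time points and scan days, and is not an independent repeat. In PC9 the counts were 5 higher, 3 lower and 2 not called, with 39.0% of all genes higher and 39.9% lower. In PC9M2 they were 6 higher, 2 lower and 2 not called, with 36.7% of all genes higher and 37.8% lower. The median of the 10 genes was 0.33 and 0.32 against -0.01 and -0.02 over all genes. The 5 genes named above were again higher in both lines. Of the 8 calls in PC9, those of CLDN3, DSP and EPCAM held in all alternative settings. Of the 8 in PC9M2, those of CLDN1 and JUP did. Both tallies leave aside the setting that also required a minimum difference. None of the 5 genes thus held in all settings in both lines.

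CLDN3 lay between 10.07 and 11.90 with EGF and between 11.86 and 13.59 with both agents in PC9 (medians 10.98 and 12.80), and its difference was 1.77 ± 0.13, or 3.41-fold, with 26 of 26 time points higher (adjusted p = 2.39e-12). The courses overlapped at a single edge. DSP lay between 13.50 and 14.42 and between 14.39 and 16.42 (medians 14.06 and 15.46), with a difference of 1.45 ± 0.11 and 26 of 26 time points higher (adjusted p = 6.06e-12). Here the 3 h array with EGF alone was not high, and the courses touched at their edges only. In PC9M2, CLDN1 differed by 1.07 ± 0.08 (25 of 26 time points higher), CLDN3 by 1.06 ± 0.14 (24 of 26), DSP by 0.83 ± 0.09 (23 of 26), OCLN by 0.71 ± 0.08 (24 of 26) and JUP by 0.39 ± 0.06 (24 of 26), and all of these courses overlapped.

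EPCAM was lower with gefitinib under EGF in both lines. In PC9 its levels were 14.99 to 16.83 with EGF (median 15.47) and 13.53 to 16.72 with both (median 14.90), and the difference was -0.66 ± 0.12 with 3 of 26 time points higher (adjusted p = 1.18e-05). The courses overlapped. In PC9M2 it was -0.12 ± 0.03, a small but regular difference with 1 of 26 time points higher (adjusted p = 0.000588). In PC9, TJP1 was lower by -0.48 ± 0.07 with 4 of 26 time points higher (adjusted p = 8.81e-07). Its PC9M2 value of -0.15 ± 0.06 (adjusted p = 0.0372) was a call lost in 9 of the 16 settings. CLDN4 passed in PC9M2 (0.24 ± 0.09, adjusted p = 0.0143), but without the time points with a saturated spot it was 0.12 (adjusted p = 0.255). F11R did not pass in either line (-0.02 and -0.05, adjusted p = 0.861 and 0.448), but with its brighter probe it was higher by 0.25 in PC9 (adjusted p = 4.57e-05).

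The gefitinib difference itself differed between the lines for 5 of the 10 genes. Relative to PC9, PC9M2 had a larger difference for CLDN1, by 0.43 ± 0.08 with 23 of 25 time points higher (adjusted p = 5.86e-05), and smaller ones for CLDN3, by -0.51 ± 0.11 with 4 of 26 higher (adjusted p = 0.000855), and for DSP, by -0.65 ± 0.14 with 2 of 25 higher (adjusted p = 0.000557). EPCAM (0.41 ± 0.09, adjusted p = 0.00129) and CLDN7 (0.35 ± 0.11, adjusted p = 0.017) also differed, although the CLDN7 value was -0.00 with normexp. Without EGF, both were called lower with gefitinib in PC9 and did not pass in PC9M2. These 3 higher and 2 lower stood against 17.0% of all genes in each direction, and the median was 0.05 against 0.01 over all genes. OCLN, JUP, CLDN4, TJP1 and F11R did not pass, with values of 0.17, -0.16, -0.15, 0.16 and -0.06. The second probe of CLDN1 gave 0.17 for this quantity and did not pass (adjusted p = 0.115). Without pairing of the arrays (no slide or time as a replicate block) 3 of the 5 calls were made, and with scaling to the 75th percentile 1 higher and 2 lower.

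In the presence of EGF, 4 genes were higher and 3 lower in this comparison, against 22.9% and 25.7% of all genes, with a median of 0.14 against -0.00. DSP had the smaller difference in PC9M2 at all 26 time points (-0.62 ± 0.07, adjusted p = 2.01e-08), followed by CLDN3 (-0.71 ± 0.12, adjusted p = 1.71e-05) and JUP (-0.48 ± 0.10, adjusted p = 0.000437). CLDN1, CLDN7, TJP1 and EPCAM were higher, by 0.32, 0.37, 0.33 and 0.53. For CLDN1 the second probe gave 0.00. DSP and EPCAM passed in all 16 alternative settings apart from that with a required difference of 1, and the unpaired fit (no replicate block) called 3 of the 7.

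**Figure D3:**
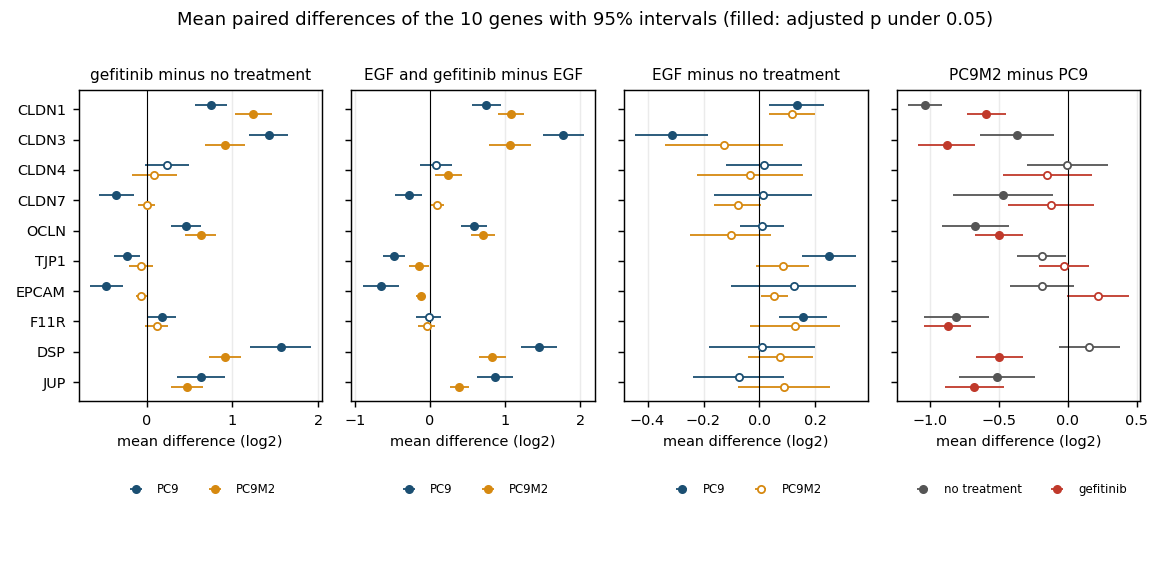
Mean paired log2 differences of the 10 genes with 95% intervals over the time points, for gefitinib against no treatment, EGF and gefitinib against EGF, EGF against no treatment, and PC9M2 against PC9; filled points passed the test at an adjusted p under 0.05. DSP and CLDN3 lie farthest to the right in PC9, at 1.56 and 1.42, EPCAM, CLDN7 and TJP1 lie to the left, and the axis of the EGF panel spans a narrower range because no EGF difference exceeded 0.31 in size.

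Between the untreated lines, 6 of the genes were lower in PC9M2, none was higher and 4 did not pass, against 37.0% of all genes lower and 31.1% higher. The median was -0.42 against -0.05 over all genes. With the brighter probe of each gene 2 were higher, F11R and TJP1, and 5 lower. The split moved to 2 higher and 5 lower with scaling to the 75th percentile and to 1 higher and 6 lower with normexp.

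CLDN1 showed the largest of these differences. Its levels were 8.24 to 9.42 in untreated PC9 and 6.98 to 8.33 in untreated PC9M2, and the difference was -1.04 ± 0.06, or 2.05-fold lower in PC9M2, with 0 of 26 time points higher (adjusted p = 2.05e-15). The ranges overlapped at their edge. A second CLDN1 probe, whose values correlated with those of the first at r = 0.75 over the arrays, gave -0.20 ± 0.09 (adjusted p = 0.0509), so the size of the line difference depended on the probe, while the gefitinib difference was 1.01 in PC9 and 1.18 in PC9M2 with that probe. OCLN was lower by -0.67 ± 0.12 with 2 of 26 time points higher (adjusted p = 1.1e-05), and its second probe gave -0.67 too.

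JUP was lower by -0.51 ± 0.13 (adjusted p = 0.00116) and CLDN3 by -0.37 ± 0.13 (adjusted p = 0.0145), the latter not passing with the scan day as a random block (adjusted p = 0.179). F11R differed by -0.81 ± 0.11 with 2 of 26 time points higher (adjusted p = 3.81e-07), but its other probe gave 0.56 ± 0.07 with 26 of 26 time points higher (adjusted p = 6.1e-08). These 2 probes of F11R correlated at r = -0.38 over all arrays, and no direction of the line difference can be given for it. TJP1 had the same disagreement at a smaller size, with -0.19 ± 0.09 (adjusted p = 0.0551) by the probe used and 0.23 by the other (adjusted p = 0.0129). CLDN7 differed by -0.47 ± 0.18 (adjusted p = 0.0188) but by 0.05 with scaling to the 75th percentile and by -0.11 (adjusted p = 0.514) without the time points with a saturated spot. EPCAM (-0.19 ± 0.11, adjusted p = 0.143) turned to 0.36 with scaling to the 75th percentile and 0.21 with normexp, CLDN4 differed by -0.00 (adjusted p = 0.98) and DSP by 0.16 ± 0.11 (adjusted p = 0.201).

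**Figure D4:**
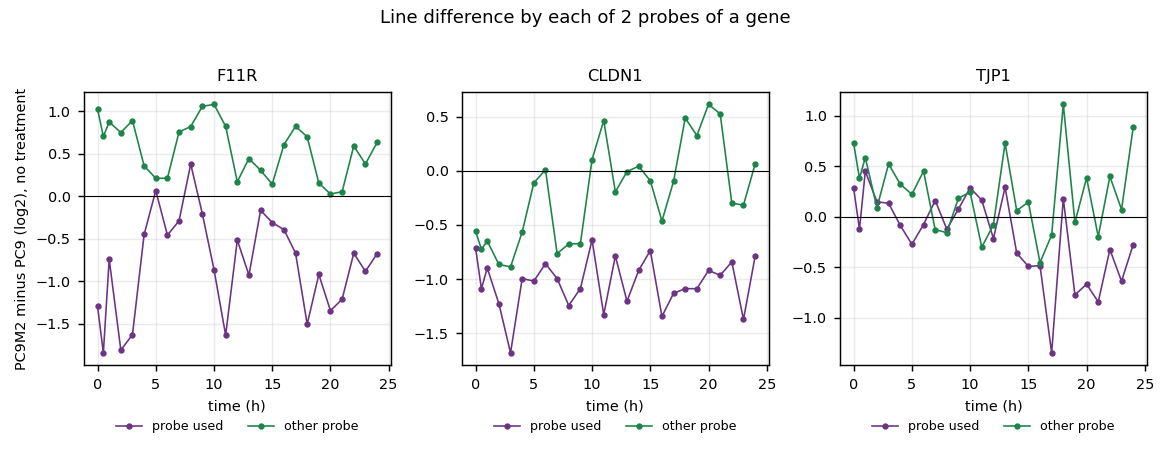
Difference PC9M2 minus PC9 (log2) in untreated cells against time in hours for the 2 probes of F11R, CLDN1 and TJP1; each point is 1 time point, and the line at 0 marks equal levels. The 2 F11R probes lie on opposite sides of 0 at nearly all time points, with means of -0.81 and 0.56, and the second CLDN1 probe lies nearer to 0 than the first at all of them.

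With gefitinib in both lines, 6 genes were lower in PC9M2 and none was higher, against 34.3% and 30.7% of all genes, with a median of -0.50 against -0.03. With scaling to the 75th percentile 1 gene was higher and 6 were lower, and with the brighter probe of each gene 2 were higher, F11R (0.33, adjusted p = 5.31e-05) and TJP1 (0.33, adjusted p = 0.000388), and 4 lower. CLDN3 lay between 12.14 and 13.57 in PC9 and between 11.16 and 12.50 in PC9M2, and differed by -0.88 ± 0.10 with 0 of 26 time points higher (adjusted p = 7.91e-09). These courses overlapped over a short range. JUP (-0.68 ± 0.10), CLDN1 (-0.59 ± 0.07), DSP (-0.50 ± 0.08) and OCLN (-0.50) were also lower, each with at most 2 time points higher. The calls of CLDN3, JUP, DSP and OCLN held in all alternative settings, apart from the one that also required a minimum difference. That of CLDN1 did not. DSP, which did not differ by the test between the untreated lines, thus differed between the gefitinib courses. F11R was the other gene called lower (-0.87 by the probe used).

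With EGF, 1 gene was higher and 7 were lower, against 32.8% and 37.0% of all genes (median -0.35 against -0.04), and scaling to the 75th percentile gave 2 higher and 5 lower. The 7 included F11R, which was higher by 0.52 with its brighter probe (adjusted p = 5.09e-06), TJP1, which differed by 0.12 with its brighter probe (adjusted p = 0.0685), and EPCAM, which differed by 0.28 with scaling to the 75th percentile. With the brighter probe of each gene 2 were higher and 4 lower. DSP was the one higher, by 0.22 with 20 of 26 time points higher (adjusted p = 0.00656), though not with the scan day as a random block (adjusted p = 0.093). CLDN1 (-1.05) and OCLN (-0.78) were lower at all 26 time points. Of the calls with EGF, that of OCLN alone held in all alternative settings, apart from the one that also required a minimum difference. With both agents, 1 was higher and 6 were lower, against 31.4% and 36.2% (median -0.53 against -0.04), and with the brighter probe 3 were higher and 4 lower, F11R (0.34) and TJP1 (0.18) having turned. The one higher was EPCAM, by 0.28 with 20 of 26 time points higher (adjusted p = 0.0467), a call lost with the scan day as a block (adjusted p = 0.516), and CLDN3 was lower by -0.89 with 1 of 26 time points higher.

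Differences with EGF alone were small. In PC9, 3 were higher and 1 was lower, against 11.3% and 14.3% of all genes, with a median of 0.01 against -0.01. The one lower was CLDN3, by -0.31 ± 0.06 with 2 of 26 time points higher (adjusted p = 0.000412), from a median of 11.20 (10.29 to 11.92) to 10.98 (10.07 to 11.90). The courses overlapped almost fully, and the pairs at matched times carried the difference. TJP1 was higher by 0.25 ± 0.05 with 22 of 26 time points higher (adjusted p = 0.000216), F11R by 0.15 ± 0.04 (adjusted p = 0.00666) and CLDN1 by 0.13 ± 0.05 (adjusted p = 0.0433). CLDN1 differed by -0.00 with its second probe and TJP1 by 0.14 with its own (adjusted p = 0.128). Without the pairing by slide (no replicate block) 0 of these 4 were called.

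In PC9M2, 0 of the 10 genes passed the limma test for EGF, against 4.09% of all genes higher and 5.03% lower, with a median of 0.06 against 0.00. At an unadjusted p under 0.05 there were 2, and the methods' t-test called 1. The lowest adjusted p was that of CLDN1 (0.12 ± 0.04, 19 of 26 time points higher, adjusted p = 0.0662). When EGF was added on top of gefitinib, 0 genes of the 10 passed in either line, against 0.0452% of all genes in PC9 and 3.23% in PC9M2, and the counts were also 0 at an unadjusted p under 0.05 and by the methods' t-test. The lowest adjusted p-values were 0.435 for OCLN in PC9 and 0.357 for CLDN4 in PC9M2. The difference of the EGF responses between the lines was called for 0 genes against 1.33% of all genes, with 1 (TJP1, -0.17) at an unadjusted p under 0.05 and 0 by the t-test.

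The EGF difference with gefitinib was set against that without it. In PC9, 1 gene was higher and 2 were lower, against 8.46% and 4.57% of all genes, with a median of -0.07 against 0.02. CLDN3 was higher (0.35 ± 0.08, 21 of 26 time points higher, adjusted p = 0.00558), while TJP1 (-0.25 ± 0.05, adjusted p = 0.00169) and F11R (-0.20 ± 0.06, adjusted p = 0.0397) were lower. In PC9M2, none was higher and 1 was lower, against 5.56% and 4.59%, with a median of -0.07 against 0.00. This was CLDN1 (-0.18 ± 0.06, adjusted p = 0.0477), which no longer passed without the 0.5 h time point (adjusted p = 0.0537) or without that of 11 h (adjusted p = 0.0588). Without pairing (no replicate block) none of these 4 calls was made.

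The untreated courses themselves changed over time. A spline fit called 8 of the 10 genes in PC9, against 66.3% of all genes, and 6 in PC9M2, against 67.1%. The median fitted range of the 10 genes was 1.03 and 0.77 on the log2 scale, and over all genes it was 0.98 in both lines. CLDN7 had the widest fitted range in PC9, 2.37 (adjusted p = 5.44e-05), with the highest fitted value at 0 h and the lowest at 16 h. This range was 0.37 with scaling to the 75th percentile and did not pass. On the PC9 scan day that held 0 h to 2 h CLDN7 had a median of 17.12, against 15.57 on the day with the next highest. CLDN7 spots were saturated on 4 of the 26 untreated PC9 arrays. The part of the scan day and of saturation in this course was not tested.

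JUP had a fitted range of 1.51 in PC9, highest at 0 h and lowest at 24 h, OCLN of 1.22 and CLDN1 of 1.08, both highest at 0 h and lowest at 9 h and 8 h. EPCAM was highest at 5 h (range 1.15), and its median was 16.58 on the scan day that held 3 h to 6 h against 15.54 on the day with the next highest. In PC9M2, CLDN1 (1.19) was highest at 0 h and lowest at 7 h, while CLDN3 (1.19) and CLDN4 (1.04) were lowest at 11 h and 12 h, around the array that stood apart. EPCAM and CLDN7 had fitted ranges of 0.17 and 0.25 in PC9M2 and did not pass. Without the time points with a saturated spot, 16 being left, 4 genes were called in PC9 and 1 in PC9M2. No spot was saturated on the PC9M2 arrays, so in that line this setting only leaves fewer time points. Those left out include most of the time points up to 6 h. With the scan day as a block the count in PC9M2 was 2. No share of all genes is set beside these counts.

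The gefitinib difference changed over time for some of the genes, in numbers near the shares of all genes. A spline on the paired differences called 5 genes in PC9, against 52.2% of all genes, and 5 in PC9M2, against 45.5% (median fitted ranges of 1.05 and 0.76 against 1.06 and 0.86). CLDN4, CLDN7, EPCAM and F11R were called in neither line. For CLDN1, CLDN3, OCLN and DSP the fitted difference was smallest at 0 h in both lines and largest at 6 h to 9 h, except for DSP, whose largest value came at 18 h in PC9 and at 24 h in PC9M2. JUP was called in PC9 (smallest at 0 h, largest at 24 h) and TJP1 in PC9M2 (largest at 6 h, smallest at 24 h). In each line 3 of these 5 calls were made without the 0.5 h time point and 0 of them without the time points with a saturated spot, which include all but one of those up to 6 h.

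Means of the gefitinib difference over 3 windows of time were also taken, without a fit. For DSP in PC9 the mean difference was 0.66 from 0 h to 6 h, 1.85 from 7 h to 15 h and 2.14 from 16 h to 24 h, and in PC9M2 it was 0.44 and then 1.15, with no further growth in the last window. JUP in PC9 went from 0.07 to 0.89 and 0.87. The first window in PC9 holds the untreated 3 h array, which lowers these means. At 3 h DSP was 16.18 untreated and 15.22 with gefitinib, and JUP was 15.38 and 14.04. CLDN3 was largest in the middle window in both lines, with 1.06, 1.81 and 1.36 in PC9 and 0.76, 1.34 and 0.62 in PC9M2. CLDN1 had the same order in PC9M2, 0.84, 1.53 and 1.32. The EPCAM difference in PC9 was -0.30, -0.51 and -0.57, and in PC9M2 it reached -0.16 in the last window alone, after -0.00 and -0.01. TJP1 was also most negative in the last window, with -0.37 in PC9 and -0.29 in PC9M2.

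Some calls turned on the 11 h or the 0.5 h time point. Without 0.5 h, F11R with gefitinib in PC9 (adjusted p = 0.0504), CLDN1 with EGF in PC9 (adjusted p = 0.053), and EPCAM between the lines with EGF (adjusted p = 0.0753) and with both agents (adjusted p = 0.0546) no longer passed. The same held for the untreated courses of EPCAM in PC9 (adjusted p = 0.0597) and CLDN4 in PC9M2 (adjusted p = 0.0526), and for the gefitinib difference over time of CLDN1 and OCLN in PC9 and of OCLN and TJP1 in PC9M2. Without 11 h, F11R with gefitinib in PC9 (adjusted p = 0.0638), F11R in the comparison of EGF differences with and without gefitinib in PC9 (adjusted p = 0.0577), EPCAM between the lines with both agents (adjusted p = 0.061), TJP1 with both agents against EGF in PC9M2 (adjusted p = 0.0561) and the untreated EPCAM course in PC9 (adjusted p = 0.0526) no longer passed. OCLN in the line difference of the gefitinib response (0.23, adjusted p = 0.0278), TJP1 between the untreated lines (-0.20, adjusted p = 0.0414, by the probe used) and the untreated OCLN course in PC9M2 (adjusted p = 0.000364) passed without it.

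The EGF difference showed no change over time that passed the limma test, with 0 genes in PC9 against 1.65% of all genes and 0 in PC9M2 against 0.527% (median fitted ranges of 0.41 and 0.47 against 0.38 and 0.49). At an unadjusted p under 0.05 there were 2 genes in PC9, CLDN1 and OCLN, and 1 in PC9M2, CLDN3. The methods' t-test does not apply to a course. With the scan day as a random block CLDN1 (adjusted p = 0.0216) and OCLN (adjusted p = 0.0462) passed in PC9.

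The 8 courses were ordered by mean level for each gene. The 4 courses with gefitinib held the top 4 places for CLDN1, CLDN3 and DSP and none of them for TJP1 and EPCAM. They also held them for CLDN4, whose gefitinib differences did not pass in either line without EGF and of whose variance gefitinib accounted for 2.61%. The 4 PC9 courses held the top places for CLDN7, OCLN and, by the probe used, F11R. For CLDN1 the order was PC9 with both agents (9.52), PC9 with gefitinib (9.39), PC9M2 with gefitinib (8.85), PC9M2 with both (8.79), PC9 with EGF (8.77), untreated PC9 (8.64), PC9M2 with EGF (7.72) and untreated PC9M2 (7.60). DSP ran from 15.60 in PC9 with gefitinib to 15.10 in PC9M2 with both agents, and then from 14.27 in PC9M2 with EGF to 14.04 in untreated PC9. Neighbouring courses overlapped in all 70 such pairs over the 10 genes.

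As shares of the variance over all arrays, gefitinib accounted for 65.3% of that of DSP, 58.5% of that of CLDN3 and 42.7% of that of CLDN1. The line accounted for 59.1% for F11R by the probe used, 33.9% for CLDN1 and 32.1% for OCLN. Time accounted for 37.5% for CLDN7 and 32.6% for EPCAM, and EGF for at most 1.41%, that of TJP1. Each time point of a line was 1 slide, so the share of time cannot be told apart from that of slide and scan day. CLDN7 and EPCAM are also among the genes with saturated PC9 spots. Among the 45 pairs of the 10 genes 30 correlated positively over the arrays, with a median of 0.23, and of 0.10 once the course means were removed. CLDN1 and OCLN were the closest pair (r = 0.85, and 0.58 within courses), CLDN3 and DSP correlated at 0.75 (0.23 within courses), and CLDN4 and EPCAM at -0.46. The arrays of a slide share hybridisation and those of a course share cells, so these are descriptions.

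The genes whose level was most like that of a member over all arrays, by Pearson's r, were TESK2 (0.92) for CLDN3, KCNK5 (0.91) for DSP, MAP3K8 (0.90) for CLDN1, TMF1 (0.85) for OCLN and SLC4A2 (0.85) for JUP. For F11R it was PRR13 (0.83), for CLDN4 PRKD2 (0.80), for EPCAM PSMA2 (0.79) and for CLDN7 EIF3I (0.78). TJP1 had no gene above 0.68 (LARP1B).

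Other genes of the same structures were counted from lists. As above, 35.1% of all genes were higher and 37.2% lower with gefitinib in PC9, and 32.6% and 34.1% in PC9M2, and list shares near these are no result about a list. Of 18 other tight junction genes tested, 7 were higher and 5 lower with gefitinib in PC9 (median 0.15) and 7 higher and 3 lower in PC9M2 (median 0.13). The cingulin gene CGN, whose product binds ZO-1, was higher by 2.06 in PC9, at 26 of 26 time points, and by 1.24 in PC9M2, while CLDN11 was lower by -0.96 and -0.69. Of 9 other desmosome genes, 5 were higher and 1 lower in PC9 (median 0.42) and 4 higher and 1 lower in PC9M2 (median 0.19). The desmocollin DSC2 (1.27 and 0.73) and the periplakin gene PPL (1.08 and 0.70) were higher. The one lower was PKP2, encoding a plakophilin that binds desmoplakin, by -2.29 in PC9 and -1.94 in PC9M2 at all 26 time points of each line, against DSP and JUP.

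Of 10 adherens junction genes, 4 were higher and 2 lower in PC9 and 4 higher and 3 lower in PC9M2 (medians 0.04 and -0.06). The nectins NECTIN4 (1.76 and 1.39) and NECTIN1 (1.90 and 0.98) were higher, and vinculin, VCL (-0.75 and -0.31), which links junctions to actin, was lower. Of 14 genes of EPCAM partners and regulators of epithelial adhesion genes, 11 were higher and 1 lower in PC9 (median 0.63) and 12 higher and none lower in PC9M2 (median 0.46). ELF3, an epithelial ETS factor, was higher by 3.08 and 2.30 at all 26 time points, and SPINT1, a membrane protease inhibitor, by 1.13 and 1.19. In the same comparisons 5 of 11 mesenchymal markers were higher and 5 lower in PC9, and 4 higher and 3 lower in PC9M2, with VIM (vimentin) lower by -0.53 and -0.39 and SNAI1 higher by 1.76 in PC9. From untreated to gefitinib, the SNAI1 course median in PC9M2 went from 8.38 to 9.37. In PC9 the median of TAGLN went from 8.24 to 6.92, that of SNAI2 from 7.41 to 8.99 and that of SPARC from 4.32 to 6.57. SPARC was well above background on 9 of the 26 untreated PC9 arrays. The part of other cell types or states in the member values was not tested.

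**Figure D5:**
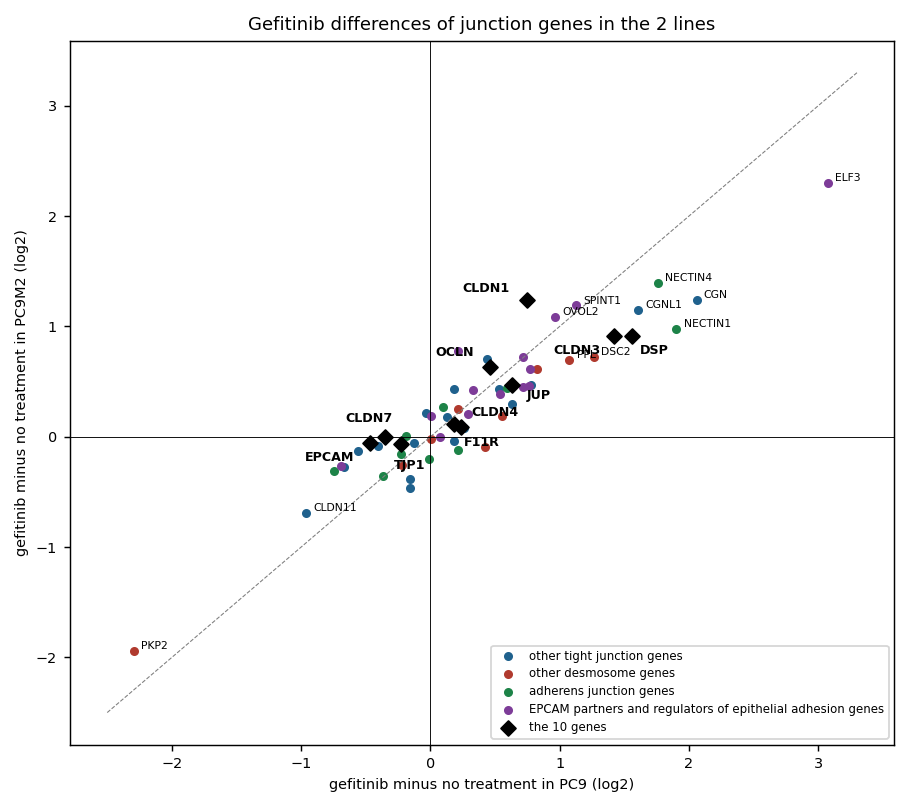
Mean paired gefitinib differences (log2) of the 10 genes (diamonds) and of the other junction and adhesion genes tested (circles coloured by list), with PC9 on the horizontal and PC9M2 on the vertical axis; the dashed line marks equal differences. CLDN1 lies above that line at 0.75 and 1.24, DSP and CLDN3 lie below it, and PKP2 lies apart at -2.29 and -1.94 from the other desmosome genes.

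Between the untreated lines these lists showed no shared direction. Of the 18 other tight junction genes 3 were higher in PC9M2 and 8 lower (median -0.12), of the 9 desmosome genes 3 and 4 (median 0.04), of the 10 adherens junction genes 4 and 1 (median 0.09) and of the 14 partners and regulators 6 and 4 (median 0.09). MARVELD3, a relative of occludin, was lower by -0.85, beside the lower OCLN. CTNNB1, encoding β-catenin, was higher by 1.31, whereas its relative JUP was lower by -0.51. Of the epithelial markers KRT19 was higher by 1.71 and KRT8 lower by -1.32.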

How the data were processed

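RNA of each line, treatment and time point was hybridised to 1 one-colour (Cy3) Agilent 44K array. The values used are the processed signal intensities the authors deposited for each array, which their Feature Extraction software (version 10.5.1.1 in the file headers) had corrected for background. The headers name build hg18. A table of quantile normalized intensities deposited by the authors served as an alternative, and flags of the scanner software marked spots as saturated, outlying or well above background.

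Non-control features were quantile normalized over all arrays, floored at 1 and taken to log2, and outlier spots (0.349% of values) were left out. Of 41000 probes 24794 were matched to 16961 genes by accession. A gene was represented by its most variable probe and tested if well above background on 13 of 26 arrays of at least 1 course, which left 13276 genes. Treatments and lines were compared with limma's moderated test (limma 3.58.1, R 4.3.3) on differences at matched times, two-sided, with Benjamini-Hochberg adjustment over all genes at 0.05, and courses with natural splines of 4 degrees of freedom. Each slide held the 4 treatments of 1 line and time point, which pairs the treatments: same-slide deviations from the course means correlated at medians of 0.29 to 0.76 within lines. Deviations between lines correlated at medians of 0.00 to 0.25 and the lines are paired by time alone, as in the study's methods. Successive differences were correlated (median lag-1 value up to 0.53 over all genes). The named genes are the 10 members, the 3 genes most like each, and list genes with the largest called differences. The members, lists, motifs and tests were chosen with earlier results of these data known. The scripts were tested on simulated data.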

Additional observations from a re-analysis of the deposited data

Results flagged for a closer look

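The 16 results below are those in which the response to one factor differed between lines or between backgrounds by a test of the difference itself (limma, adjusted p under 0.05). The gefitinib difference in PC9M2 minus that in PC9 was 0.43 for CLDN1, -0.51 for CLDN3, 0.35 for CLDN7, 0.41 for EPCAM and -0.65 for DSP. In the presence of EGF it was 0.32 for CLDN1, -0.71 for CLDN3, 0.37 for CLDN7, 0.33 for TJP1, 0.53 for EPCAM, -0.62 for DSP and -0.48 for JUP. The EGF difference with gefitinib minus that without was 0.35 for CLDN3, -0.25 for TJP1 and -0.20 for F11R in PC9, and -0.18 for CLDN1 in PC9M2. Saturated spots of CLDN7, EPCAM, DSP and JUP lay on PC9 arrays alone, and without the time points that hold one the CLDN7 value without EGF was 0.26 and did not pass (adjusted p = 0.158). The part of saturation in the other values was not tested beyond that setting.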

How the results depend on the processing

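Over 17 alternative settings, 3359 of 3730 values of single genes kept their direction and their side of the threshold, 293 no longer passed, 61 newly passed and 17 reversed, and 306 of 373 counts of the 10 genes stayed within 1.5 times the reported count. The 11 h, 0.5 h and saturated-spot settings were chosen after seeing the data. Saturation limits the high levels and 1 array per time point the precision. The causes were not tested.

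Values that reversed were, with scaling to the 75th percentile, CLDN7 0.0527 and EPCAM 0.36 between the untreated lines and EPCAM 0.28 between the lines with EGF. With normexp they were CLDN7 0.02 for gefitinib in PC9 and -3e-04 for its line difference, and EPCAM 0.21 and 0.13 between the lines untreated and with EGF. With the brighter probe of each gene they were CLDN1 -0.0045 for EGF in PC9, F11R 0.25 for both agents against EGF in PC9, F11R 0.56, 0.33, 0.52 and 0.34 and TJP1 0.23, 0.33, 0.12 and 0.18 between the lines untreated, with gefitinib, with EGF and with both.

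Counts that moved by more than 1.5 times are given as genes called under the setting. With a difference of at least 1 also required, gefitinib gave 2 in PC9 and 1 in PC9M2, both agents against EGF 2 and 2, EGF in PC9 0, the line comparison 1 untreated, 0 with gefitinib, 1 with EGF and 0 with both, the gefitinib difference between lines 0 without and 0 with EGF, the EGF by gefitinib comparison 0 and 0, and untreated time courses 5 and 3. With the variance inflated for lag-1 autocorrelation, both agents against EGF gave 4 in PC9 and 3 in PC9M2, the lines 3 untreated and 3 with EGF, and EGF by gefitinib 1 and 0. With time points 3 h apart, gefitinib in PC9 gave 4, its line difference 0, both agents against EGF in PC9M2 5, EGF in PC9 0, the lines 3 untreated and 3 with EGF, EGF by gefitinib 0 and 0, untreated courses 0 and 0 and the gefitinib difference over time 0 and 1. Without the pairing (no replicate block), EGF in PC9 gave 0, the gefitinib difference between lines 3 without and 3 with EGF, and EGF by gefitinib 0 and 0, and no other count moved by over 1.5 times.

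With the scan day as a block, EGF over time in PC9 gave 2, EGF by gefitinib in PC9M2 0, the lines with EGF 5 and the untreated PC9M2 course 2. Without the time points that hold a saturated PC9 spot, EGF by gefitinib in PC9M2 gave 0 and the lines with EGF 5. Untreated courses gave 4 and 1 and the gefitinib difference over time 0 and 0. Without 0.5 h, EGF by gefitinib in PC9M2 gave 0 and the gefitinib difference over time 3 and 3, and without 11 h EGF by gefitinib in PC9M2 gave 0, as it did with no filter on dim genes. With the brighter probe, EGF in PC9 gave 1 and EGF by gefitinib 1 in PC9 and 0 in PC9M2. With the mean of all probes, EGF over time in PC9 gave 1 and EGF by gefitinib in PC9 1. With outlying points replaced by a smoothing spline, EGF in PC9M2 gave 2, EGF over time in PC9M2 1 and the EGF difference between lines 1. The methods' t-test gave 1 for EGF and 2 for EGF by gefitinib in PC9M2. Normexp gave 2 for EGF in PC9 and 1 in PC9M2, and scaling to the 75th percentile 1 for EGF in PC9M2 and 3 for the gefitinib difference between lines.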
